A study of Mus musculus with 100 samples.

Results

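Enpp3, Car4, Pth1r, Nphs1, Ivns1abp, Rftn1 and Stk33 are 7 of the 25965 genes in the expression table of a study of mouse induced pluripotent stem cells (iPSCs). They were chosen by their measured values: in each of them all 12 libraries of iPSCs grown in Knockout Serum Replacement (KSR) medium lay on the same side of all 3 libraries of embryonic stem cells (ESCs) grown with 2 kinase inhibitors (2i). Enpp3, Car4, Pth1r, Nphs1 and Ivns1abp were higher in the KSR-iPSCs, and Rftn1 and Stk33 were lower. That contrast is therefore described below without a test. The tests concern what the choice did not use, which is the level in the starting fibroblasts, the differences among the KSR-iPSC lines, and the share of each parental allele.

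RNA was sequenced in 6 groups of 3 libraries. Female mouse embryonic fibroblasts (MEFs) came from a female C57BL/6J (BL6) mouse with a doxycycline-inducible Yamanaka cassette mated to a CAST male, and carried the reverse transactivator in Rosa26. They were taken at E13.5. Colonies picked after doxycycline induction of such MEFs gave 4 lines kept in KSR with LIF, of which F KSR2 and F KSR4 are female, while M KSR3 and M KSR5 are male. TX 2i ESCs are TX1072, a female ESC line from the same kind of cross, kept in serum with LIF and the inhibitors CHIR99021 (of GSK3) and PD0325901 (of MEK). Each KSR-iPSC line is 1 clone and the ESC group is 1 line, so replicates are cultures of a line. The p-values measure the spread between such cultures. In the female against male comparison and in the permutation tests of allelic shares, the spread between lines is mixed in. The origin of the cells, the line, the serum or serum replacement and the inhibitors all change together from KSR-iPSCs to TX 2i ESCs, so they cannot be told apart. For the male lines sex changes as well, so the KSR minus TX 2i differences are not free of sex. The male lines have no male MEFs beside them in the RNA-seq. Levels are log2 RPM, the reads of a gene scaled to the depth of its library, and 1 read stands at -4.29 to -3.89 on that scale, depending on the library.

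The 7 genes have separate jobs. Enpp3 encodes an enzyme of the cell surface that cuts nucleotides outside the cell. Car4 encodes a carbonic anhydrase anchored to the outer face of the membrane, which interconverts carbon dioxide and bicarbonate. Pth1r encodes the receptor for parathyroid hormone and its related peptide, and in the early mouse embryo the receptor is known from the primitive and parietal endoderm. Nphs1 encodes nephrin, the adhesion protein of the slit diaphragm in kidney podocytes. Ivns1abp encodes a BTB-Kelch protein first found by its binding to an influenza protein. Rftn1 encodes raftlin, a protein of lipid rafts studied in B cells, and Stk33 encodes a serine/threonine kinase of the calcium/calmodulin group that is best known from the testis. PD0325901 blocks MEK, the kinase that activates ERK, and CHIR99021 blocks GSK3, which otherwise marks beta-catenin for breakdown. ESCs held in 2i are known to have little DNA methylation.

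In the annotation of GRCm38 the genes lie on 6 chromosomes. Enpp3 (ENSMUSG00000019989) is on chromosome 10 from 24773814 to 24836195 on the minus strand, and Car4 (ENSMUSG00000000805) on chromosome 11 from 84957786 to 84966044 on the plus strand. Pth1r (ENSMUSG00000032492) is on chromosome 9 from 110722088 to 110743686 on the minus strand and overlaps Myl3 on the other strand. Nphs1 (ENSMUSG00000006649) and Stk33 (ENSMUSG00000031027) share chromosome 7, from 30458315 to 30487223 on the plus strand and from 109279223 to 109439081 on the minus strand. Ivns1abp (ENSMUSG00000023150) is on chromosome 1 from 151344498 to 151364445 on the plus strand, and Rftn1 (ENSMUSG00000039316) on chromosome 17 from 49992257 to 50190674 on the minus strand. Antisense transcripts or pseudogenes overlap Nphs1, Ivns1abp and Stk33, and a lincRNA overlaps Rftn1. The counting was by strand, except that the pseudogene Gm9105 lies on the strand of Stk33.

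RefSeq promoter sequences (GRCm38.p6, 250 bases before to 50 bases after a start) were found for 6 of the 7 genes, in 9 entries. Those of 4 genes are shown because the genes that were higher in KSR-iPSCs began in windows both poor and rich in CpG, the dinucleotide that carries DNA methylation in mammals. Each is written 5′ to 3′ on the strand of the gene, with every CpG in capitals.
Enpp3: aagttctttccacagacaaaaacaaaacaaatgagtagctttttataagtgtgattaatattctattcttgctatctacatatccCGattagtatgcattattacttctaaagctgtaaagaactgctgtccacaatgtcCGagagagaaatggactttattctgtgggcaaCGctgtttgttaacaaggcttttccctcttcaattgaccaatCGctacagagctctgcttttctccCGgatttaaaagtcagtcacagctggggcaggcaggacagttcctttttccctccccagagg
Car4: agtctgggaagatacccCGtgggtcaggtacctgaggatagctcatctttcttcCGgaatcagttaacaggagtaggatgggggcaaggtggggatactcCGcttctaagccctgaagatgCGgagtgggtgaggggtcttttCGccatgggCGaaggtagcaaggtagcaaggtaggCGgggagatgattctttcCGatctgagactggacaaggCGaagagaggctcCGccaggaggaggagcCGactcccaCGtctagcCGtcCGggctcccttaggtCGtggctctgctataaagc
Ivns1abp: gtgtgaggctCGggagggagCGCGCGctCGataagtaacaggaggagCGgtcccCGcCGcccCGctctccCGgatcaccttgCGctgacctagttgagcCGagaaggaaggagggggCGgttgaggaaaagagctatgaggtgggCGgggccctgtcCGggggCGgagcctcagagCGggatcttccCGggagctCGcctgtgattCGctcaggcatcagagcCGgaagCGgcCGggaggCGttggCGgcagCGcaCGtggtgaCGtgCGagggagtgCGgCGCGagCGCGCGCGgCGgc
Rftn1: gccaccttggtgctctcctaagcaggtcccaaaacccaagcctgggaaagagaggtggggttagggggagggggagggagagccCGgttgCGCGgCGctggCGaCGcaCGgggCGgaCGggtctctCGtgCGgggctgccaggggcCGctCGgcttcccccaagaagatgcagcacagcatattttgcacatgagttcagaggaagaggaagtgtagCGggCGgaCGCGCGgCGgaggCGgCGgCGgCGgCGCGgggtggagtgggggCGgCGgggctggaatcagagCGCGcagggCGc
The Enpp3 window (chr10:24836146-24836445, minus strand) held 5 CpGs, and the Car4 window (chr11:84957504-84957803, plus strand) held 15. The Ivns1abp window (chr1:151344236-151344535, plus strand) held 37, more than 94.4% of the 32851 promoters of the table had, and the Rftn1 window (chr17:50190448-50190747, minus strand) held 30, more than 88.3%. The median promoter held 7. The entry of Nphs1 had 6 CpGs and the 3 entries of Pth1r had 5, 23 and 27. The genes that were higher in KSR-iPSCs thus ran from 5 to 39 CpGs. An AP-1 motif (TGANTCA), an ETS motif (CCGGAAGT) and a TCF/LEF motif (CTTTGA) were searched on both strands, and 7.81%, 3.89% and 16% of all promoters held them. None of the 9 entries held the first or the second motif, and the Nphs1 entry held the third.

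Enpp3 had 36, 59 and 54 reads in the MEFs and 0, 7 and 30 in TX 2i ESCs. Of the male lines, M KSR5 had 2301, 1623 and 1263 reads and M KSR3 had 406, 333 and 345. Of the female lines, F KSR2 had 904, 1433 and 1106 and F KSR4 had 930, 136 and 741. The mean level was 6.56 ± 0.40 (SD, n = 3) in M KSR5, 6.0 ± 0.31 in F KSR2, 4.75 ± 1.59 for F KSR4 and 4.31 ± 0.24 for M KSR3, followed by 1.41 ± 0.24 in the MEFs and -1.60 ± 2.62 in TX 2i ESCs. In this order of the lines each KSR-iPSC line overlapped the next, whereas the MEFs lay below all of them and above all TX 2i ESCs. The KSR minus TX 2i difference was 7.0 on the log2 scale, and it was 5.65 without TX 2i replicate 1, which had no read, and 8.27 without replicate 3.

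Car4 had no read in any MEF library. TX 2i ESCs had 3, 7 and 9 reads. The male lines had 427, 474 and 526 reads (M KSR3) and 179, 459 and 368 (M KSR5), and the female lines 221, 138 and 343 (F KSR4) and 126, 185 and 171 (F KSR2). Mean levels were 4.70 ± 0.14 in M KSR3, 4.13 ± 0.73 in M KSR5, 3.69 ± 0.80 in F KSR4, 3.17 ± 0.31 in F KSR2 and -1.60 ± 0.90 in TX 2i ESCs. The 4 KSR-iPSC lines overlapped their neighbours in this order, and TX 2i ESCs stood 5.52 below their mean. A count of 0 over the 3 MEF libraries allows 3 reads, or 0.0545 RPM, against which F KSR2 was at least 167-fold higher and M KSR3 at least 479-fold higher. These bounds cover counting error only.

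Pth1r was a gene of the fibroblasts, with 431, 216 and 284 reads in the MEFs. The male lines came next, with 172, 193 and 236 reads in M KSR3 and 71, 99 and 195 in M KSR5, before the female lines, with 42, 48 and 137 (F KSR2) and 34, 28 and 41 (F KSR4). TX 2i ESCs had 1, 3 and 1. The mean level was 4.03 ± 0.64 in the MEFs, 3.45 ± 0.23 in M KSR3, 2.65 ± 0.78 in M KSR5, 1.89 ± 1.02 in F KSR2, 1.00 ± 0.43 for F KSR4 and -3.59 ± 0.83 for TX 2i ESCs. Each of these groups overlapped the next except TX 2i ESCs, which were 5.84 below the mean of the KSR-iPSCs. Primitive endoderm markers differed between these groups. Their summed level over 10 genes was 217 to 257 RPM in M KSR3, 127 to 180 in the MEFs, 43.0 to 130 in M KSR5, 38.2 to 42.6 in F KSR4, 36.3 to 87.8 in F KSR2 and 12.7 to 26.1 in the ESCs. In the MEFs most of it was Dab2, with 2614, 2472 and 2173 reads, while Sox17 had none and Sox7 had 7 to 13. Of the 8 markers tested, 7 were higher in KSR-iPSCs than in TX 2i ESCs by limma, where 23.0% of all genes were called, among them Sox7 (log2 difference 5.54, SE 0.62) and Cubn (5.5, SE 0.47), while Afp and Ttr stayed at 0 to 3 reads in every library. In bulk RNA, more cells of a type and more RNA per cell cannot be told apart, and the part of such cells in the Pth1r level was not tested.

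Nphs1 had 0, 0 and 1 reads in the MEFs and 33, 35 and 52 in TX 2i ESCs. M KSR5 had 796, 682 and 585 reads, F KSR2 had 625, 687 and 360, F KSR4 had 417, 277 and 348, and M KSR3 had 226, 183 and 180. Mean levels were 5.27 ± 0.19 in M KSR5, 4.93 ± 0.41 in F KSR2, 4.34 ± 0.35 for F KSR4 and 3.42 ± 0.26 for M KSR3, followed by 1.17 ± 0.48 in TX 2i ESCs and -4.29 ± 0.14 in the MEFs. M KSR3 was the lowest KSR-iPSC line and did not overlap F KSR4, the next above it. Against the single read of the MEFs, the pooled reads of the KSR-iPSCs were, relative to depth, 1390 times higher (exact 95% counting interval 250.0 to 55100) and those of TX 2i ESCs 126 times (22.3 to 5030).

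Ivns1abp was the most abundant of the 7 genes per length in each of the 4 KSR-iPSC lines and in the MEFs, with a mean of 88.4 RPM per kilobase of exon in M KSR3, 41.7 in M KSR5, 27.4 in the MEFs, 25.6 in F KSR2, 15.0 for F KSR4 and 7.96 for TX 2i ESCs. It had 8583, 8959 and 8702 reads in M KSR3, 3864, 3895 and 4278 in M KSR5, 2255, 3227 and 2739 in the MEFs, 2947, 2221 and 2190 in F KSR2, 1597, 1253 and 1288 for F KSR4, and 559, 802 and 874 for TX 2i ESCs. The MEFs and F KSR2 overlapped, and the other neighbours in this order did not. The KSR minus TX 2i difference was 2.15, and 1.33 with the female lines alone.

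Rftn1 was high in the MEFs and in TX 2i ESCs and low in between. It had 538, 626 and 626 reads in the MEFs, 656, 635 and 581 in TX 2i ESCs, 96, 72 and 76 in F KSR2, 78, 66 and 72 in M KSR3, 49, 61 and 49 in M KSR5, and 27, 34 and 24 in F KSR4. Mean levels were 5.17 ± 0.07 in TX 2i ESCs and 5.02 ± 0.03 in the MEFs, a difference of 0.14, and then 2.19 ± 0.24, 1.98 ± 0.21, 1.57 ± 0.18 and 0.73 ± 0.17 in F KSR2, M KSR3, M KSR5 and F KSR4. F KSR4 lay below all other KSR-iPSC libraries.

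Stk33 had 1287, 1088 and 992 reads in TX 2i ESCs. The MEFs had 0, 3 and 0 reads, and the male lines were as low, with 3, 3 and 0 (M KSR3) and 1, 1 and 1 (M KSR5). The female lines had 41, 9 and 23 reads (F KSR2) and 11, 6 and 45 (F KSR4). The mean level of TX 2i ESCs was 6.01 ± 0.16, and the male lines, at -3.18 ± 0.99 and -4.15 ± 0.03, overlapped the MEFs at -3.77 ± 0.92. The female lines lay between, at 0.21 ± 1.15 and -0.24 ± 1.65, and the KSR minus TX 2i difference was -7.84, or -6.02 with the female lines alone. Recovered counts this low may be off by about 1 read.

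**Figure D1:**
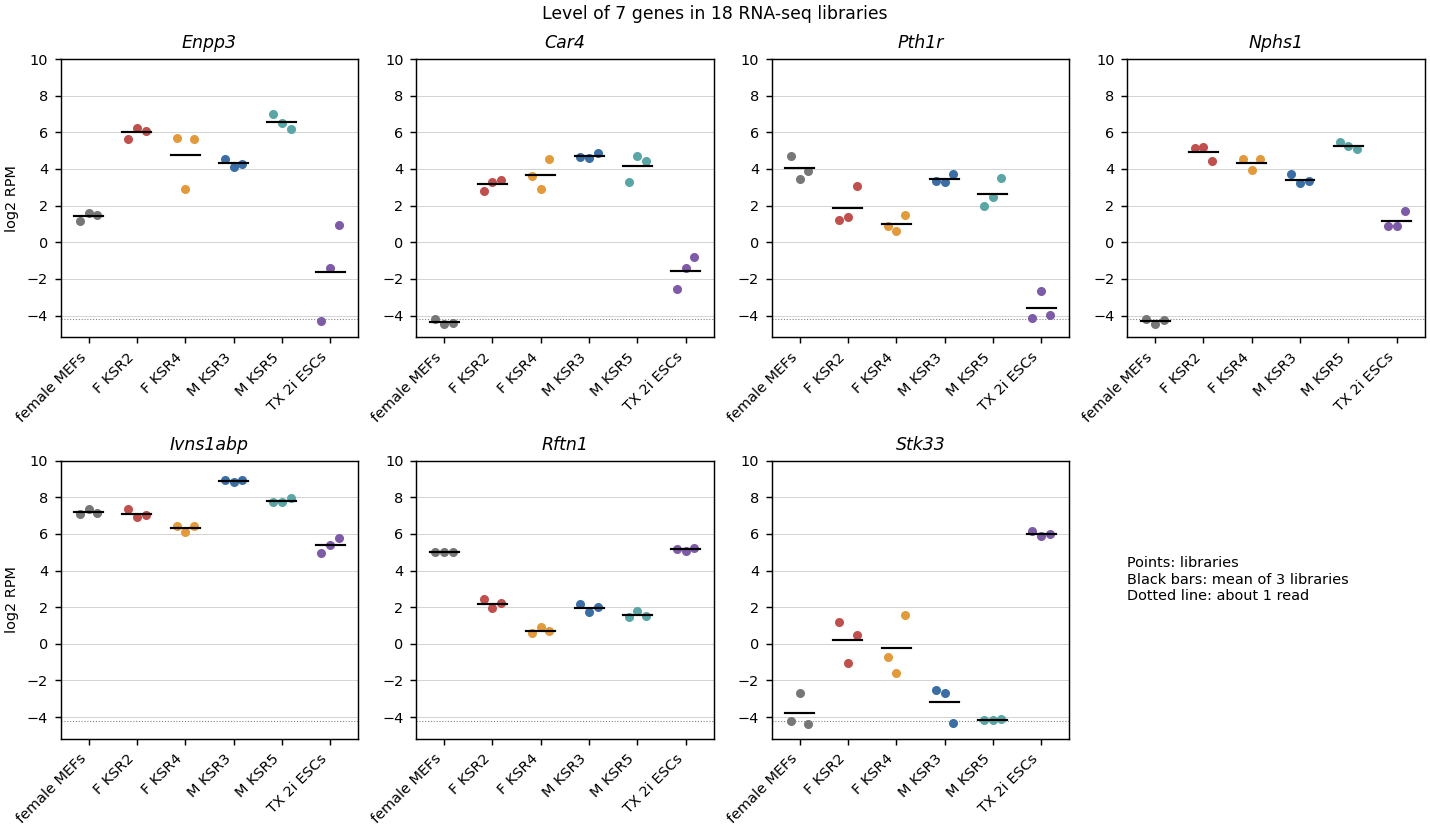
Level of the 7 genes (y axis, log2 RPM) in each library of the 6 groups (x axis), with points for libraries, black bars for the mean of 3 libraries and a dotted line near the value of 1 read. The 12 KSR-iPSC libraries lie above the 3 TX 2i libraries for the first 5 genes and below them for Rftn1 and Stk33, which is how the genes were chosen, while the level of the MEFs differs from gene to gene.

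The order of the 7 genes among all genes depended on the measure. Among the 14632 genes with a level above 0 in at least 3 of the 18 libraries, 10.2% had KSR-iPSC and TX 2i libraries that did not overlap, 3.94% with the KSR-iPSCs higher and 6.21% with them lower, and all 7 genes are in these sets because of the choice. By the size of the difference Enpp3, Pth1r and Car4 ranked 2, 8 and 11 of the 577 genes higher in KSR-iPSCs, but Nphs1 ranked 121 and Ivns1abp 226. Stk33 ranked 1 of the 909 lower genes and Rftn1 ranked 56. Spry4 (9.22), Etv4 (6.63), Stra8 (6.06) and Egr1 (5.77) stood beside Enpp3 and Pth1r in this ranking, and Casr (-6.48) came after Stk33. Beside the lower members, Neurod1 (3.26) came after Nphs1, Calca (2.14) after Ivns1abp, and H2-Eb1 (-3.54) after Rftn1. By the moderated statistic, which weighs the difference against the spread, Rftn1, Ivns1abp, Car4 and Pth1r ranked 3, 8, 9 and 10 of all genes, Stk33 13, Nphs1 16 and Enpp3 62.

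The next comparison asks how the pluripotent cells stand against the fibroblasts from which the female lines were made. With limma on all 18 libraries, and the mean of the 5 pluripotent groups set against the MEFs, 6 of the 7 genes passed a Benjamini-Hochberg adjusted p of 0.05, where 74.6% of all genes did. Car4, Nphs1, Enpp3 and Stk33 rose, as 42.1% of all genes did, and Pth1r and Rftn1 fell, as 32.5% did. Car4, Nphs1 and Stk33 were below 0 in every MEF library, so they passed the filter on low values through pluripotent libraries alone. Their calls are thus not independent of that direction, and they should not be weighed against the share of all genes. Apart from that limit, the count of 6 was near the background of this comparison. The log2 difference was 7.16 (SE 0.38, adjusted p = 1.79e-11) for Car4 and 8.12 (SE 0.25, adjusted p = 1.57e-14) for Nphs1, fitted with 0 reads held at 0.9 read, and with 1 added to the RPM it was 3.31 and 3.97. For Enpp3 it was 2.59 (SE 0.69, adjusted p = 0.00258) and for Stk33 3.50 (SE 0.59, adjusted p = 4.05e-05), or 1.63 with 1 added. Pth1r fell by 2.95 on the log2 scale (SE 0.43, adjusted p = 7.8e-06) and Rftn1 fell by 2.70 (SE 0.19, adjusted p = 9.74e-10). For Ivns1abp the difference was -0.10 (SE 0.14, adjusted p = 0.548). The median difference of all genes was 0.21, and 0.33 after each library had been centred on its median.

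The mean of the 5 groups hides that KSR-iPSCs and TX 2i ESCs left the level of the MEFs in different ways. Car4 and Nphs1, with 0 and 1 reads in all MEF libraries, had reads in every pluripotent library, and their distance from the MEFs is given above as a bound and as a counting ratio. Enpp3 stood 2.90 to 5.15 above the MEFs in the KSR-iPSC lines, and its difference in TX 2i ESCs was -3.01. Pth1r stood below the MEFs throughout, by a difference of -3.02 to -0.58 in the KSR-iPSC lines and -7.62 in TX 2i ESCs. For Rftn1 the KSR-iPSC lines lay at -4.30 to -2.83 and TX 2i ESCs at 0.14. Stk33, with 3 reads in all MEF libraries, was highest in TX 2i ESCs, whose reads were, relative to depth, 1180 times those of the MEFs (exact 95% counting interval 404 to 5740). Ivns1abp lay on both sides, at 1.70 in M KSR3 and -0.87 in F KSR4, with TX 2i ESCs at -1.82. By these differences, the KSR-iPSC lines departed further from the MEFs than TX 2i ESCs did for Rftn1, and TX 2i ESCs departed further for Pth1r. These distances share the MEF libraries and were not tested against each other.

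**Figure D2:**
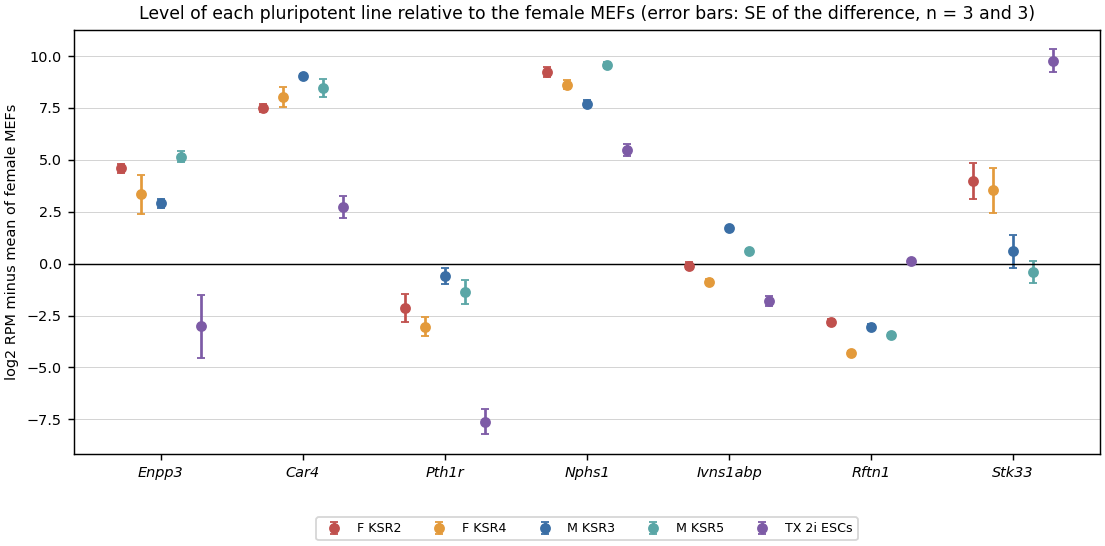
Mean level of each pluripotent group minus that of the female MEFs (y axis, log2 RPM) for each gene (x axis), with points for groups and bars for the SE of the difference of 3 and 3 libraries. Car4, Nphs1 and Stk33 had 0 to 3 reads in all MEF libraries, so their heights rest on the 0.9 read that stands for 0. Pth1r lies below 0 in all 5, and for Enpp3 the KSR-iPSC lines (2.90 to 5.15) and TX 2i ESCs (-3.01) lie on opposite sides of the MEFs.

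The cells matched their labels by markers. The 8 pluripotency markers summed to 3670 to 7820 RPM in the 15 pluripotent libraries and to 1.40 to 2.29 RPM in the MEFs. The 15 fibroblast markers summed in the pluripotent libraries to 1.43 to 4.52% of their mean in the MEFs. Between KSR-iPSCs and TX 2i ESCs 8 of these 15 passed, where 23.0% of all genes did, and the median of the 15 was 0.84. In KSR-iPSCs 6 were higher, led by Col3a1 (4.50, SE 1.10, with 0 reads in TX 2i ESCs), and 2 were lower. The part of these markers in the levels of the 7 genes was not tested. Pth1r, Ivns1abp, Rftn1 and, at 36 to 59 reads, Enpp3 are themselves read in MEFs, and Car4, Nphs1 and Stk33 had 0 to 3 reads there.

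Next, the lines were compared with each other. Between the 6 female and the 6 male KSR-iPSC libraries, limma called Ivns1abp, Stk33 and Pth1r, 3 of the 7 genes, where 2.87% of 13609 genes were called. Ivns1abp had a level of 6.11 to 7.37 in the female libraries, with a median of 6.68, and of 7.74 to 8.96 in the male ones, with a median of 8.40. The groups did not overlap and the female minus male difference was -1.64 (SE 0.27, adjusted p = 0.00365). Stk33 was at -1.59 to 1.60 in the female libraries, median -0.12, and at -4.32 to -2.52 in the male ones, median -4.13, again without overlap, and the difference was 3.65 (SE 0.75, adjusted p = 0.0145). With 1 added to the RPM it was 1.00 (adjusted p = 0.048), since the male libraries had 0 to 3 reads. Stk33 passed the filter on low values through 3 female libraries alone, F KSR2 replicates 1 and 3 and F KSR4 replicate 3. Its call is thus not independent of that direction, and it should not be weighed against the share of all genes. Pth1r was at 0.63 to 3.06 in the female and 1.97 to 3.71 in the male libraries, which overlapped, and the difference was -1.60 (SE 0.40, adjusted p = 0.0412). Primitive endoderm markers were highest in M KSR3, as given above, and their part in this difference was not tested. Car4 had a difference of -0.99 (SE 0.31, adjusted p = 0.0949), and those of Enpp3, Nphs1 and Rftn1 were -0.06, 0.29 and -0.31 with adjusted p-values of 0.965, 0.725 and 0.683.

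Each sex is represented by 2 lines, so sex and line are hard to separate. The fit above took all libraries of a sex as replicates, although they are cultures of 2 lines. With the line as a random effect, Ivns1abp stayed past the threshold (adjusted p = 0.00986), while Stk33 (0.0551) and Pth1r (0.115) did not. In M KSR3, a male line, genes around Ivns1abp had a median level 0.51 above that of the other KSR-iPSC lines. The part of this in the Ivns1abp difference between the sexes was not tested. The call of Pth1r was also lost when F KSR2 replicate 1 or 2, any replicate of F KSR4, any replicate of M KSR3 or M KSR5 replicate 3 was left out, with adjusted p-values from 0.0589 to 0.114. Stk33 was above 0 in too few libraries to be tested without F KSR2 replicate 1, F KSR2 replicate 3 or F KSR4 replicate 3, and its call held in the other settings that left out a library. Car4 passed without F KSR4 replicate 3 (adjusted p = 0.0245) or without M KSR5 replicate 1 (0.0295).

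Within a sex, F KSR2 differed from F KSR4 in Rftn1, where 1.14% of all genes were called. Rftn1 was higher in F KSR2 by 1.47 (SE 0.25, adjusted p = 0.00706), and Ivns1abp by 0.77 (SE 0.19, adjusted p = 0.0538), which passed when TX 2i replicate 1 (0.032), TX 2i replicate 3 (0.036) or F KSR4 replicate 1 (0.0186) was left out. M KSR3 differed from M KSR5 in Nphs1 and Ivns1abp, where 4.48% of all genes were called. Nphs1 was lower in M KSR3 by a difference of -1.84 (SE 0.32, adjusted p = 0.00497) and Ivns1abp was higher by 1.09 (SE 0.19, adjusted p = 0.00404). The chromosome of Ivns1abp differed in M KSR3, as given below, and its part in the Ivns1abp difference was not tested. Enpp3 differed by -2.26 in the same direction as Nphs1 without passing (SE 0.89, adjusted p = 0.17), and passed with 1 added to the RPM (adjusted p = 0.0164) or with limma-voom on recovered reads (0.0138).

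Allelic reads made up 17.7 to 19.9% of the reads, and BL6 reads are maternal and CAST reads paternal. No reciprocal cross was sequenced, so parent of origin and strain cannot be told apart. In TX 2i ESCs Rftn1 had 0 maternal reads in each library beside 88, 86 and 81 paternal reads, a share of 0% that allows up to 1.18% over the 255 reads. The MEFs had 29, 45 and 32 maternal beside 57, 45 and 61 paternal reads, a mean maternal share of 39.4% ± 9.21 (SD, n = 3). Of the 88 allelic reads of the 12 KSR-iPSC libraries 28 were maternal. Both alleles were thus read in the MEFs and in the KSR-iPSCs, and the paternal allele alone in TX 2i ESCs. In the 4 KSR-iPSC libraries with at least 10 allelic reads the share was 10.0 to 50.0%, with a mean of 31.8% ± 16.6 (SD, n = 4), and the exact two-sided permutation test against the 3 TX 2i libraries gave p = 0.0571 (adjusted p = 0.0571 over 2 genes tested), where the smallest p of this design is 0.0286. In TX 2i ESCs the 66 genes with at least 30 allelic reads within 5 Mb of Rftn1 had a median maternal share of 45.6%, and the lowest was 16.5%. Dazl and Plcl2, the next genes beyond Rftn1, had maternal shares of 33.2% and 31.5% there, against 33.7 to 43.5% and 46.3 to 62.9% in the KSR-iPSC lines. A share under 2% was seen in 0.46% of the autosomal genes with at least 30 allelic reads in TX 2i ESCs.

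Nphs1 was the reverse case. M KSR5 had 336 maternal and 5 paternal reads, F KSR2 had 276 and 9, F KSR4 had 166 and 1, M KSR3 had 107 and 0, and TX 2i ESCs had 24 and 0. The mean maternal share was 100% in M KSR3, 99.5% ± 0.802 in F KSR4, 98.5% ± 0.933 in M KSR5 and 96.8% ± 0.355 in F KSR2 (SD, n = 3 each). Within 5 Mb the median share was 50.8 to 51.6% over 120 to 135 genes in the 6 groups, with 1 to 2 genes over 95% in each pluripotent group. A share over 98% was seen in 0.277 to 2.08% of autosomal genes with at least 30 allelic reads.

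Ivns1abp was read from both alleles in all groups. Its maternal share was 59.3% ± 2.53 in M KSR3, 52.9% ± 1.68 in the MEFs, 46.7% ± 6.34 in F KSR4, 45.0% ± 1.54 in M KSR5, 42.2% ± 5.28 in F KSR2 and 37.0% ± 5.62 in the ESCs (SD, n = 3). The TX 2i minus KSR-iPSC difference was -11.3 percentage points, with p = 0.0352 in the exact two-sided permutation test and an adjusted p of 0.0571. M KSR3, which had the highest Ivns1abp level, also differed in its chromosome: genes within 5 Mb had a median maternal share of 70.2% in M KSR3 and 50.8 to 54.3% in the other groups, and their median level in M KSR3 was 0.51 (log2) above that of the remaining KSR-iPSC lines. Over chromosome 1 as a whole, 68.0% of allelic reads were maternal in M KSR3, against 50.8 to 52.0% elsewhere. M KSR3 also entered the KSR-iPSC mean of 48.3% in the permutation test of the share. The part of the chromosome in the Ivns1abp level of M KSR3, or in that share difference, was not tested.

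Car4 lies in a region with the same feature. Within 5 Mb of it the median maternal share was 68.4% in M KSR3 and 52.1 to 54.3% in the other groups, and the median level in M KSR3 was 0.62 above the other KSR-iPSC lines. Car4 itself had 169 maternal and 59 paternal reads in M KSR3, a share of 74.1% ± 5.61, but M KSR5 and F KSR4 also had more maternal reads, with 68.5% ± 3.37 and 66.5% ± 17.3, and F KSR2 had 55.5% ± 8.74 (SD, n = 3).

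Enpp3 had 9, 10 and 12 maternal beside 2, 3 and 3 paternal reads in the MEFs, a share of 79.6% ± 2.47 (SD, n = 3). In the 12 KSR-iPSC libraries the share was 43.8 to 72.6%, with a mean of 57.8% ± 9.09, and no library overlapped the MEFs. The difference was 21.8 percentage points (exact two-sided permutation p = 0.0022, the smallest this design can give; adjusted p = 0.00879 over 4 genes tested). In the MEFs the genes within 5 Mb had a median share of 55.0%. The MEF values rest on 11 to 15 allelic reads per library. TX 2i ESCs, with 7 maternal of 9 allelic Enpp3 reads in all, had too few to enter the test. By line the mean share ran from 51.0% in M KSR5 to 67.9% in M KSR3. The test took cultures of 1 line as independent, so its p may be too small. Pth1r (-1.39 percentage points, adjusted p = 0.908), Ivns1abp (6.90, adjusted p = 0.265) and Rftn1 (21.2, adjusted p = 0.233) did not pass in the same exact permutation test of MEFs against pluripotent libraries. Stk33 was read from both alleles in TX 2i ESCs, with 146, 141 and 131 maternal and 157, 121 and 123 paternal reads, a share of 51.2% ± 2.84 (SD, n = 3). In F KSR4 replicate 3, the KSR-iPSC library with the most Stk33 reads, 3 of 20 allelic reads were maternal, and in F KSR2 8 of 18 over its 3 libraries.

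**Figure D3:**
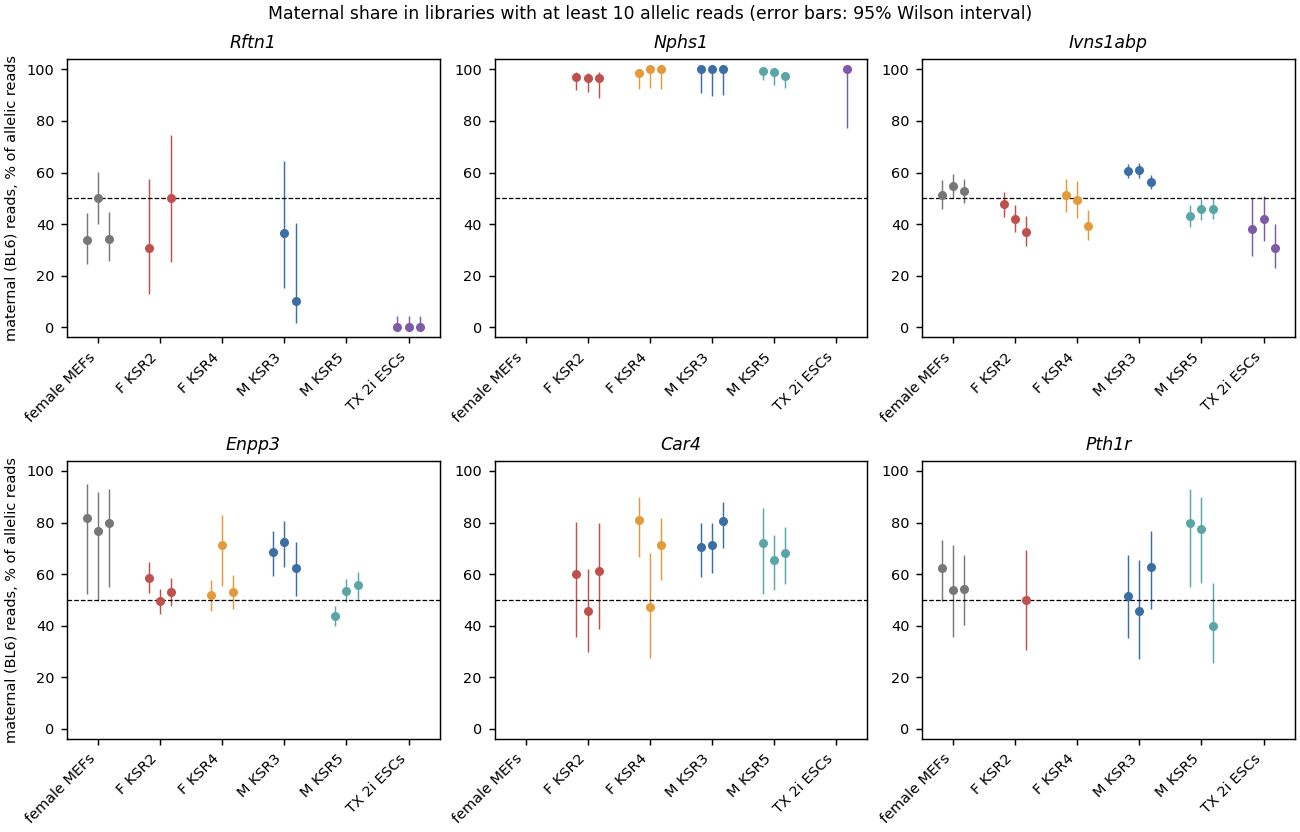
Maternal share of 6 genes (y axis, % of allelic reads) in each library with at least 10 allelic reads, by group (x axis), with 95% Wilson intervals that cover counting error and a dashed line at 50%. Rftn1 lies at 0% in the 3 TX 2i libraries and at 33.7 to 50.0% in the MEFs, Nphs1 lies at 96.5 to 100% wherever it was read, and Ivns1abp is highest in M KSR3.

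The nearest tested genes on each side of the 7 genes, 28 in all, were then placed in the comparison of KSR-iPSCs with TX 2i ESCs, which called 23.0% of all genes. Of the 28, 5 rose and 2 fell in KSR-iPSCs. Kirrel2, which encodes a nephrin-like adhesion protein and starts head to head with Nphs1 with a gap of 0.6 kb, was higher in KSR-iPSCs by 1.95 (SE 0.28, adjusted p = 0.000119), and Nphs1as, on the other strand inside Nphs1, by 1.97 (SE 0.58, adjusted p = 0.0218), a call lost without TX 2i replicate 1, 2 or 3 (adjusted p up to 0.114). Both had no read in the 3 MEF libraries. The mean level of Kirrel2 was 4.04 in M KSR5, 3.70 in F KSR2, 2.81 in M KSR3, 2.43 in F KSR4 and 1.29 in the ESCs. Like Nphs1 it was read almost wholly from the maternal allele, with 272 of 283 allelic reads in M KSR5, 222 of 227 in F KSR2, 124 of 125 in M KSR3, 90 of 90 in F KSR4 and 44 of 46 in the ESCs. Aplp1, the next gene beyond Kirrel2, had a difference of 0.29 (adjusted p = 0.371) and Gm1082 on the other side one of -0.26 (adjusted p = 0.756).

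Lmo1, a LIM-domain transcription cofactor gene 108.9 kb from Stk33, fell by 3.85 in KSR-iPSCs (log2, SE 0.66, adjusted p = 0.000461). It had 58, 144 and 71 reads in TX 2i ESCs and 1 to 17 in the KSR-iPSC libraries, but unlike Stk33 it was also read in the MEFs, with 66, 68 and 86. Trim66, at 9.9 kb on the other side, had a difference of -1.02 (adjusted p = 0.157). Plcl2, 318.9 kb from Rftn1, fell by 1.37 (SE 0.23, adjusted p = 0.000412), with Dazl between them at -0.67 (adjusted p = 0.283). On chromosome 10 Enpp1, a relative of Enpp3, was higher by 1.72 (SE 0.54, adjusted p = 0.0291), a call also lost without any TX 2i library (up to 0.11), as were Med23 by 0.56 and Akap7 by 0.89 (adjusted p of 0.00898 and 0.0106), whereas the neighbours of Car4, Pth1r and Ivns1abp did not pass.

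**Figure D4:**
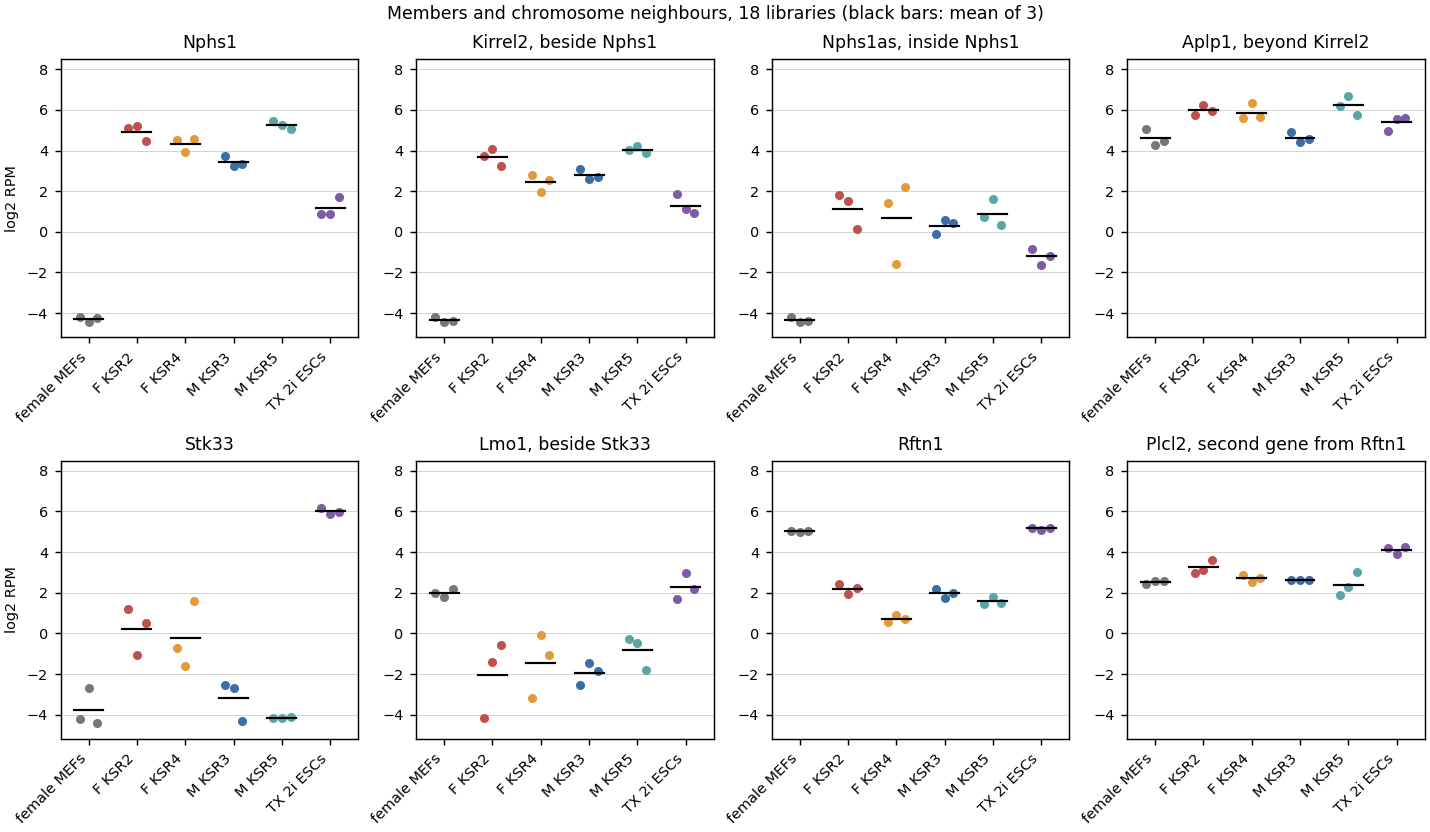
Level (y axis, log2 RPM) of Nphs1, Stk33 and Rftn1 and of neighbours on the same chromosome in each library of the 6 groups (x axis), with black bars for the mean of 3. Kirrel2 and Nphs1as, like Nphs1, are near or at the floor in the MEFs, where Aplp1 is not, and Lmo1 is high in TX 2i ESCs and in the MEFs.

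The relatives of the 7 genes and the pathways that the 2i compounds act on were counted in the same comparison, leaving the 7 genes out. In the 9 lists 66 of 171 genes tested passed. The lists were chosen with earlier results of these data known, so their shares are a description. The ectonucleotidases, the enzymes that share the work of Enpp3, had 4 genes higher and 1 lower of 10 tested, with a median difference of 0.64, where the median of all genes was 0.00. Enpp2, which makes lysophosphatidic acid, was higher by 4.01 (SE 0.60), Enpp5 by 2.45 (SE 0.49) and Enpp4 by 1.25 (SE 0.31), while Alpl, the alkaline phosphatase of pluripotent cells, was lower (-0.88, SE 0.21). Enpp2 was high in the MEFs and M KSR5 (2.42 and 2.97), at 0 to 9 reads in M KSR3 and at 0 to 1 read in TX 2i ESCs. The size of its difference thus rests on the 0.9 read that stands for 0.

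Of the carbonic anhydrases 5 were higher and 1 lower of 12 tested, with a median of 0.32. Car3, a cytosolic form, rose by 3.39 (SE 0.66), the mitochondrial Car5b by 3.33 (SE 0.63), and the mitochondrial Car5a fell (-2.32, SE 0.46). Car3 had 0 reads in TX 2i ESCs and 0 to 3 in M KSR3. The size of its difference thus rests on the 0.9 read that stands for 0. Car9, a membrane form induced by low oxygen, differed by 2.17 (SE 0.71), and its call held in 9 of the 15 fits without a library in which it was tested (adjusted p up to 0.197). Of the 20 PTH signalling genes tested 1 was higher, the adenylyl cyclase gene Adcy6 (1.89, SE 0.38), and 6 were lower, with a median of -0.09, among them the G protein gene Gna11 (-0.93, SE 0.12), Adcy3 (-1.07, SE 0.29) and Arrb1 (-0.92, SE 0.25).

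Of the 20 slit diaphragm genes tested 5 were higher and 1 lower, with a median of 0.16. Among the higher ones were the transcription factor gene Wt1 (3.07, SE 0.57), Kirrel2, and Inf2 (0.89, SE 0.20), which encodes a formin of podocytes. Myo1e, a myosin gene, was lower (-0.61, SE 0.21), but its call held in 6 of the 18 fits that left out a library (adjusted p up to 0.218). Of 37 BTB-Kelch genes 6 were higher, led by Klhl3 (2.64, SE 0.71) and Enc1 (1.72, SE 0.27), and 7 were lower, led by Klhl13 (-2.43, SE 0.29) and Klhl22 (-1.73, SE 0.14), with a median of -0.03. Klhl3 had 58 to 74 reads in M KSR3, 2 to 24 in the other KSR-iPSC lines and 1 to 5 in TX 2i ESCs. Of 19 lipid raft genes 5 were higher and 4 lower, with a median of -0.28. The kinase gene Btk (-3.66, SE 0.56) and Thy1 (-1.57, SE 0.26) fell, while Ptrf, which encodes a coat protein of caveolae, rose by 2.95 (SE 0.61). Of 21 CAMK kinase genes 3 were higher and 2 lower, with a median of -0.33. Camk1d was lower (-1.01, SE 0.17) and Dclk1, a kinase of microtubules, was higher by 3.33 (SE 0.58). Dclk1 had 0 to 1 read in TX 2i ESCs, 0 to 11 in M KSR3 and 5 to 26 in M KSR5. The size of its difference thus rests on the 0.9 read that stands for 0.

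Of 18 ERK targets tested, 11 were higher in KSR-iPSCs and 0 lower, a share of 61.1% against 23.0% for all genes, with a median difference of 1.63. The feedback inhibitor Spry4 led with 9.22 (SE 0.75), followed by the ETS factor Etv4 with 6.63 (SE 0.34), the early response gene Egr1 with 5.77 (SE 0.55) and the ERK phosphatase Dusp6 with 5.30 (SE 0.55). Etv4 had 11 to 32 reads in TX 2i ESCs and 691 to 5745 in the KSR-iPSC libraries. Of 14 beta-catenin targets 1 was higher, Dkk1 (3.63, SE 0.74), and 3 were lower, Sp5 (-4.86, SE 1.15), Cdx1 (-2.46, SE 0.44) and Axin2 (-1.13, SE 0.32), a share of 28.6%. No relation of these targets to the 7 genes was tested. Among the genes named from the lists and neighbours, the calls of Enpp4, Arrb1 and Axin2 were lost without TX 2i replicate 1 or 2 (Axin2 also without replicate 3), those of Adcy3, Klhl3 and Med23 without replicate 2, that of Akap7 without replicate 1 and that of Inf2 without replicate 3, with adjusted p-values up to 0.124.

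**Figure D5:**
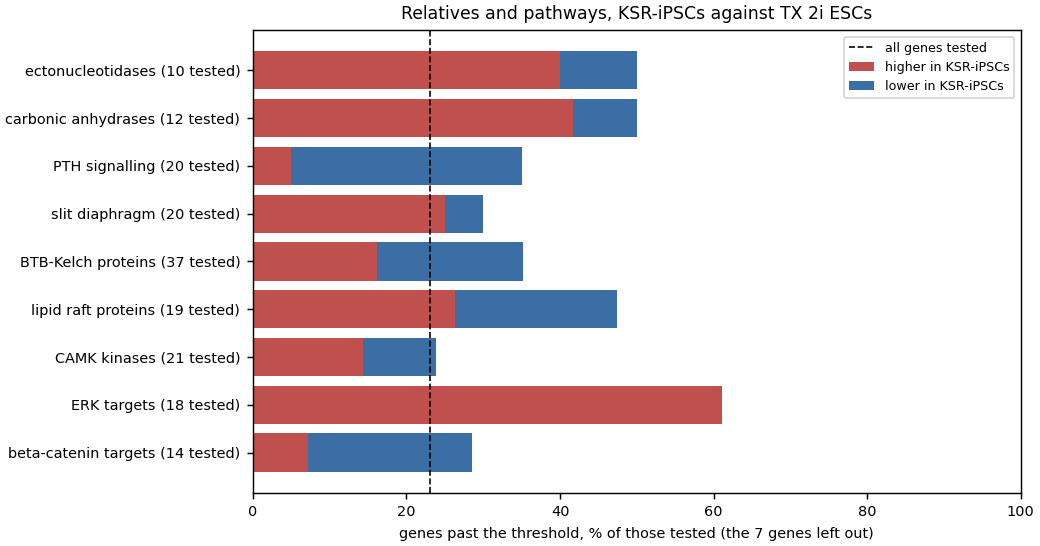
Share of the genes tested in each list (x axis, %) that were higher (red) or lower (blue) in KSR-iPSCs than in TX 2i ESCs by limma, with the 7 genes left out and a dashed line at the 23.0% of all genes. Of the ERK targets 61.1% passed, all of them higher in KSR-iPSCs. The lists were chosen with earlier results of these data known.

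Over the 18 libraries the genes most like each of the 7 in their log2 level, by Pearson's r and as a description, were these. Nphs1 was followed by Esrp1 (r = 0.987), a splicing factor gene of epithelial cells, and Phc1 (0.983). Car4 was followed by Stra8 (0.980), a gene of meiotic entry, and Tcfl5 (0.969). For Pth1r they were Decr1 (0.974) and Steap1 (0.940), for Enpp3 Col6a5 (0.903) and Stra6 (0.896), and for Ivns1abp Exoc1 (0.907) and Vps53 (0.906). For Rftn1 they were Pitpnm3 (0.944) and Tnk2 (0.938), and for Stk33 the X-linked Nkap and Fgf13 (0.928 each). The libraries share 6 groups, so these values mostly reflect group means. Among the 7 genes themselves Car4 and Nphs1 ran together (r = 0.92) and opposite to Rftn1 (-0.91 and -0.81), while Pth1r and Ivns1abp ran together (0.80) and opposite to Stk33 (-0.91 and -0.78).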

How the data were processed

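For the RNA-seq the authors used Trim Galore for trimming, HISAT2 (version 2.1.0 in the submitters' processing notes) for alignment to GRCm38, and SeqMonk to count by strand over genes. The deposited values are log2 RPM, for all reads and for reads assigned to the BL6 (genome1) or CAST (genome2) genome. Turned back into reads, 99.97 to 100% of the values per library came within 0.05 of a whole read. Reads on genes numbered 13183036 to 17921280 per library. Values of 0 reads stand at 0.9 read. Low counts favour odd numbers, so they may be off by about 1.

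Limma 3.58.1 in R 4.3.3 was fitted with 1 mean per group to genes above 0 in at least 3 of the 18 libraries. The female against male comparison was instead fitted to the 12 KSR-iPSC libraries with 1 mean per sex. Its genes were those above 0 in at least 3 of these 12. Benjamini-Hochberg adjustment at 0.05 ran over all genes of a fit, and limma was tested on simulated data. Maternal shares used libraries with at least 10 allelic reads and exact two-sided permutation tests. Intervals and floors cover counting error only. The 7 genes and all lists were chosen with earlier results of these data known. Named were the 7 genes, up to 4 called genes per list and direction, the 2 nearest tested genes per side, the genes ranked beside each of the 7 and the 2 most alike. A list gene that the rule names is not reported here. Alternatives were another pseudocount, no filter, limma-voom, median centring, a replicate block, line as a random effect, female lines only, other read minimums and leaving out each library. The 82 methylation samples were not used here.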

Additional observations from a re-analysis of the deposited data

Results flagged for a closer look

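A single library lay far from the other 5 of its sex in 3 of 23 groups examined, by Dixon's criterion. Chance meets it in about 1 in 20 groups of independent values. The libraries of a sex are cultures of 2 lines, so that rate may not hold here. Enpp3 was at 2.91 (log2 RPM) in F KSR4 replicate 2, and the nearest female KSR-iPSC library was at 5.65. Car4 was at 3.31 in M KSR5 replicate 1, with the nearest male library at 4.41. Pth1r was at 3.06 in F KSR2 replicate 3, with the nearest female library at 1.47. No explanation of these libraries was tested.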

How the results depend on the processing

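The count of the 7 genes called between F KSR2 and F KSR4 was 1 and became 2 with 1 added to the RPM, with limma-voom and with the replicate block, as Ivns1abp joined Rftn1, and it was 1 to 2 when a library was left out. Between female and male KSR-iPSCs it was 3 and became 1 with line as a random effect (Ivns1abp), and it was 1 without F KSR2 replicate 1 and 4 without M KSR5 replicate 1, the range over all left-out libraries. The replicate block changed no other count of the 7 genes by over 1.5 times. Of 45 pairs of libraries with the same replicate number, 13 had deviations correlated above 0.1 (from -0.197 to 0.382 over all pairs), and 13 of 18 libraries correlated best with their own number, a hint of pairing from the data and not from the design. The MEF minus pluripotent difference of the Pth1r maternal share, -1.39 percentage points, reversed to 2.37 with at least 5 allelic reads and to 2.25 with at least 20, and without MEF replicate 2 (0.0738), M KSR5 replicate 1 (2.25) or M KSR5 replicate 2 (1.80), and it ranged down to -4.41 over left-out libraries. The TX 2i minus KSR-iPSC difference of the Ivns1abp share passed with at least 20 allelic reads (-11.3, adjusted p = 0.0352 in the exact permutation test, where Rftn1 was no longer tested) and without F KSR2 replicate 3 (-12.3, adjusted p = 0.033), and it ranged from -13.7 to -8.22 over left-out libraries. With 1 added to the RPM the KSR minus TX 2i difference was 3.58 for Car4, 2.45 for Pth1r, -3.16 for Rftn1 and -5.42 for Stk33. Of the other alternative values 203 of the comparisons' counts and shares and 2424 of those of single genes were taken as unchanged. For shares this meant the same direction and side of the threshold, and for counts a change of at most 1.5 times. Single-gene tests kept their side of the threshold, but their direction could change where neither fit passed. The untested KSR minus TX 2i differences moved by less than the largest SD of a pluripotent group. Another 104 single-gene values lost their call and 14 gained one. Depth limits Stk33 in the male lines and Pth1r in TX 2i ESCs, at 0 to 3 reads, and the Rftn1 share in KSR-iPSCs, at 1 to 13 allelic reads per library. The causes of these changes were not tested.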
